A study of Mus musculus with 16 samples.

Results

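The comparison described here sets hippocampal neurons that received any human apoE lipoprotein against neurons that received medium free of apoE. All 16 libraries of the series entered it: the 12 libraries of neurons treated with apoE2, apoE3 or apoE4 lipoproteins (4 per isoform) formed a single treated side, and the 4 libraries of control neurons formed the other, with the replicate number (1 to 4) as a block. Primary cultures were prepared from hippocampi of P0 to P2 pups of CD1 mice, an outbred strain with its own mouse Apoe gene, and every culture received cytosine arabinoside at 3 DIV (days in vitro), which limits the growth of dividing, non-neuronal cells. At 10 and again at 13 DIV all neurons received 10-fold concentrated conditioned medium of immortalized astrocytes, and RNA was taken at 17 DIV. The treated side received medium of astrocyte lines homozygous for the human APOE ε2, ε3 or ε4 allele, derived from targeted replacement mice, and the control side received medium of an immortalized Apoe-/- line. All astrocytes, those of the control included, had been given 25-hydroxycholesterol to raise apoE production, and apoE levels were balanced with Apoe-/- medium. Each medium came from a line of its own, so apoE and whatever else differs between the apoE-producing lines and the Apoe-/- line cannot be told apart.

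ApoE is the main lipid-carrying apolipoprotein of the brain. Astrocytes secrete it on particles resembling high-density lipoprotein, which neurons and glia take up through lipoprotein receptors at the cell surface, and the lipid cargo feeds membranes and synapses. Reactive astrocytes are astrocytes that respond to injury, cytokines or lipid signals by raising intermediate filaments such as GFAP, secreted acute-phase proteins and components of the extracellular matrix. The signal transducer STAT3 downstream of gp130 cytokine receptors, the transcription factor AP-1, and the TEAD factors with their coactivators YAP and TAZ are known regulators of such genes in many cell types.

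The libraries held between 14087723 and 34248172 counts on genes (median 22221832), and total counts did not separate the sides (treated minus control −364000, two-sided exact permutation test within replicate numbers, p = 0.922, where the smallest possible p is 0.00391). The cultures expressed the neuronal genes Rbfox3 (57.4 to 126 CPM, read counts relative to the TMM-scaled library size), Slc17a7 of excitatory neurons (312 to 1240 CPM) and Gad2 of inhibitory neurons (71.5 to 140 CPM), together with the astrocyte gene Gfap (189 to 3450 CPM) and the myelin gene Mbp (50.0 to 361 CPM). The endothelial gene Cldn5 reached at most 0.563 CPM. Markers of microglia were low, with P2ry12 at 0.171 to 2.49 CPM, Cx3cr1 at 0.38 to 3.54 CPM and Aif1 at 1.57 to 5.67 CPM. Other non-neuronal markers were also detected, with the ependymal gene Foxj1 at 13.9 to 235 CPM, the contractile gene Acta2 at 0.541 to 147 CPM (beside Myh11 of smooth muscle at up to 0.536 CPM), the pericyte gene Pdgfrb at 0.558 to 10.2 CPM and the fibroblast gene Col1a1 at 1.85 to 49.6 CPM. The replicate number was the main source of variation. On the leading principal component, with 55.4% of the total variance, replicate numbers accounted for 89.4% and treated against control for 4.38%.

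Neurons cultured with any apoE showed a response in which most called genes were higher, among them glial genes, genes of the extracellular matrix and cytokine receptors. Of 17038 tested genes 173 were higher than in the control (1.02% of those tested) and 12 were lower (0.0704%) at an adjusted p under 0.05 (edgeR's quasi-likelihood test, Benjamini-Hochberg adjustment, used for every adjusted p below). The smallest adjusted p was 0.0111. At least a 2-fold difference was reached by 78 of the genes called higher and by 2 of those called lower, Pde7b and Atp6v1c2. The median log2 fold change was 0.94 over the genes called higher, −0.48 over those called lower and 0.01 over all tested genes. Within each replicate number the treated mean lay above the control for all 173 genes called higher and below it for all 12 called lower, a pattern for which a blocked test selects. Over all tested genes the treated mean was above the control in all 4 numbers for 16% and below it for 13.9%. The median log2 differences within numbers 1 to 4 were 1.21, 0.70, 0.85 and 0.78 for the genes called higher and −0.71, −0.54, −0.45 and −0.43 for those called lower. All 12 treated libraries exceeded the control of their own replicate number for 143 of the 173 genes, against 481 (2.82%) of all tested genes, and all 12 fell below it for 10 of the 12, against 294 (1.73%) of all tested genes. The treated libraries of a number share its 1 control library, so these 12 comparisons, here and for single genes below, are not independent. The calls rested on the block: without it no gene was called by edgeR (598 genes at an unadjusted p under 0.05, smallest adjusted p 0.502), while the common dispersion was 0.0273 with the block and 0.125 without it. They also rested on each control library, since 0 genes were called without control replicate 1 or without control replicate 3, 30 without control replicate 2 and 3 without control replicate 4 (1529 and 2389 genes at an unadjusted p under 0.05 in the first 2 of these fits). Among treated libraries, the calls numbered 75, 69, 84 and 1309 without apoE2 replicates 1 to 4 and 72, 77 and 53 without apoE3 replicates 1 to 3, and no gene of the 185 changed sign in any of these fits in which it was tested. Every call and list count of this pooled fit given below is therefore lost without control replicate 1 or control replicate 3. The tests among isoforms and the fit with a coefficient per isoform, given last, kept part of their calls in these cases. Some list counts of the latter fit, such as those of GABA-A receptor genes, nevertheless fell to 0.

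**Figure D1:**
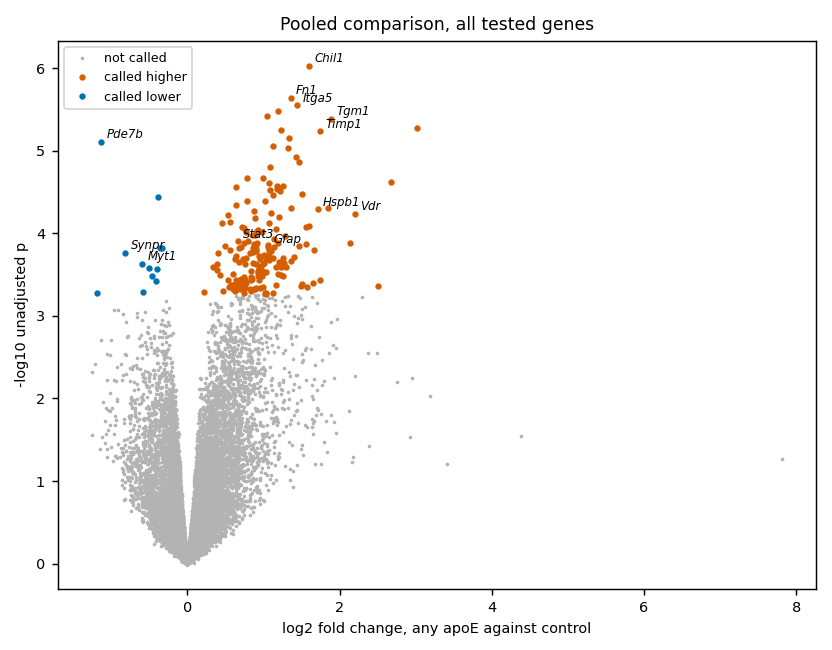
Log2 fold change of any apoE against control on the x axis and −log10 of the unadjusted p on the y axis for 17038 tested genes; points in orange are the 173 genes called higher and points in blue the 12 called lower. The called genes lie mostly on the right, and Chil1 has the smallest p.

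Promoter windows of a few genes of this response are shown because they carry short matches to STAT, AP-1 or TEAD motifs, the factors named above. They are RefSeq windows on GRCm38.p6 (the mm10 build of the files), 250 bases before to 50 bases after an annotated start, printed along the gene's strand with the matches in capitals. The motifs marked were TTCNNNGAA (STAT), TGAGTCA (AP-1) and GGAATG (TEAD), searched on both strands, so a TEAD match can read CATTCC and an AP-1 match TGACTCA. The windows lie at chr11:102897151-102897450 (minus strand) for Gfap, chr14:55713443-55713742 (minus strand) for Tgm1, chr7:128523333-128523632 (plus strand) for Bag3, chr10:56377050-56377349 (plus strand) for Gja1, chrX:20869916-20870215 (plus strand) for Timp1 and chr11:100939491-100939790 (minus strand) for Stat3.
Gfap: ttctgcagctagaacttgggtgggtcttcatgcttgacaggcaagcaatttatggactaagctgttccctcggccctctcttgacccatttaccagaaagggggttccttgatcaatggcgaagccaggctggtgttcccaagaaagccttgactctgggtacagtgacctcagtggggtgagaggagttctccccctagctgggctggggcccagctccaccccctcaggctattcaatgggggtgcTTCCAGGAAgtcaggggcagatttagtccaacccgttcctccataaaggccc
Tgm1: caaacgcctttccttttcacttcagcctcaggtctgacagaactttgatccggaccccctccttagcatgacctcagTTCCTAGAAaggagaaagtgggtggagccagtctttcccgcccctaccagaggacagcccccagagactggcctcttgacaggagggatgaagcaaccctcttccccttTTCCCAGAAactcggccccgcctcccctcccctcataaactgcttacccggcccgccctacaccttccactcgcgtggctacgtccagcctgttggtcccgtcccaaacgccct
Bag3: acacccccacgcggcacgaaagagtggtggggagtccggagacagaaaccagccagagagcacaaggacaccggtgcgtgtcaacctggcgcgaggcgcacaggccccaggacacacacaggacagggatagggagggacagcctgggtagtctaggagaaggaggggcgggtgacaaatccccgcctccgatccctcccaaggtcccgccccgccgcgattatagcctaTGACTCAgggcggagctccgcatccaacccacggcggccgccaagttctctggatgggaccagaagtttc
Gja1: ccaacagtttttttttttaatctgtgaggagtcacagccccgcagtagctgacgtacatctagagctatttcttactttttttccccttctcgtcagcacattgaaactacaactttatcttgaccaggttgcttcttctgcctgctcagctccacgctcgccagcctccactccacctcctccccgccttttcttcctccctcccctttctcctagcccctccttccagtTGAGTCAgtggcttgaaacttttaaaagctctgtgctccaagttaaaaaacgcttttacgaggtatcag
Timp1: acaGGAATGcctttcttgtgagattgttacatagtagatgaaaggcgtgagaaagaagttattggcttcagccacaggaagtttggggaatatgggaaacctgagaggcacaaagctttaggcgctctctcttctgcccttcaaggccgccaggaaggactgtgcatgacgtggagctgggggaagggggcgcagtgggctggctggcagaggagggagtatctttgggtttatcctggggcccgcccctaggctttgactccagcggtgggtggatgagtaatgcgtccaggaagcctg
Stat3: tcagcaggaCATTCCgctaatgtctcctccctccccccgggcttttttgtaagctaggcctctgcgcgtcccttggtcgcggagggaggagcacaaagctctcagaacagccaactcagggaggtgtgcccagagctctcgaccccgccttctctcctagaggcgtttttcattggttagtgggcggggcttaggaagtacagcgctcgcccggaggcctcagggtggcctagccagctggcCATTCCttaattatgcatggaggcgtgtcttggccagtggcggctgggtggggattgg
Windows were found for 130 of the 173 genes called higher (172 windows) and for 11600 of all tested genes (14843 windows). The TEAD motif was in 18.02% of the windows of genes called higher and in 12.5% of all windows. AP-1 matches were in 8.14% of the former and 3.83% of the latter, and STAT matches in 6.98% and 6.76%. By contrast the ETS motif CCGGAAG was in 5.23% of the windows of genes called higher and in 14.95% of all windows. Further motifs were searched, and the shares also differed for some of them, such as the TATA box TATAAA (12.79% and 7.74%) and the cyclic AMP element TGACGTCA (1.16% and 2.91%). A match is a run of letters in the reference and not a measured binding site, and these shares were not tested.

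The genes with the smallest p encode a secreted astrocyte glycoprotein, a matrix protein and a subunit of its receptor. Chil1 (chr1:134182176-134190181), which encodes the secreted glycoprotein YKL-40 of reactive astrocytes, was at 22.1, 2.05, 9.42 and 113 CPM in control replicates 1 to 4 and at 4.59 to 415 CPM (median 56.7) in the treated libraries. The raw ranges of the groups overlapped because replicate 2 was low and replicate 4 high in every group, but each of the 12 treated libraries lay above the control of its number. Its log2 fold change was 1.59 ± 0.21 (SE, n = 12 treated and 4 control libraries, adjusted p = 0.0111), which is 3.02-fold, and the differences within replicate numbers were 1.88, 1.43, 1.64 and 1.23. Fn1 (chr1:71585520-71653200), encoding the matrix protein fibronectin, was at 27.7, 5.47, 10.3 and 53.5 CPM in the controls and at 12.5 to 143 CPM (median 53.9) with apoE. All 12 treated libraries exceeded their control, and the fold change was 2.56 (log2 1.36 ± 0.19, adjusted p = 0.0111). Itga5 (chr15:103344286-103366763), the α subunit of the fibronectin receptor, rose 2.72-fold from 2.27, 0.604, 0.942 and 2.99 CPM in the controls to between 0.855 and 11.2 CPM (log2 1.45 ± 0.20, adjusted p = 0.0111).

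Other leading genes had roles in enzymatic crosslinking, proteolysis control and cytokine reception. Tgm1, a transglutaminase that crosslinks proteins, was at 2.09, 1.13, 7.92 and 9.22 CPM in the controls and at 2.74 to 49.3 CPM (median 16.9) with apoE, a 3.69-fold difference (log2 1.88 ± 0.27, adjusted p = 0.0111). Timp1 (chrX:20870166-20874735), an inhibitor of matrix metalloproteinases, was at 6.09, 1.41, 8.38 and 19.2 CPM in the controls and at 4.82 to 74.0 CPM (median 24.04) with apoE. It rose 3.34-fold (log2 1.74 ± 0.26, adjusted p = 0.0111) and was above the control of its number in 12 of 12 libraries. Osmr (chr15:6813577-6874969), the receptor subunit for oncostatin M that signals through gp130, was at 19.6, 3.38, 13.0 and 45.0 CPM in the controls and at 7.70 to 150 CPM (median 41.8) with apoE (log2 1.34 ± 0.20, adjusted p = 0.0121). Il1r1, the signalling receptor of interleukin 1, rose by 1.43 ± 0.23 and Fgf2, a growth factor, by 1.47 ± 0.24 on the log2 scale (adjusted p = 0.0144 and 0.0154). The same rule of smallest p named Cyp1b1 (log2 1.19 ± 0.17), a cytochrome P450, the actin-binding calponin Cnn2 (1.05 ± 0.15), the secreted matrix protein Adamtsl3 (1.23 ± 0.18), the junction protein Cgnl1 (1.13 ± 0.18) and the chaperone partner Bag3 (1.33 ± 0.21), each above its control in 12 of 12 libraries. Gm10800 had the largest fold of the leading genes (log2 3.02 ± 0.45), but it is a predicted gene with near-identical copies in the genome, and the reads behind it cannot be assigned with certainty.

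**Figure D2:**
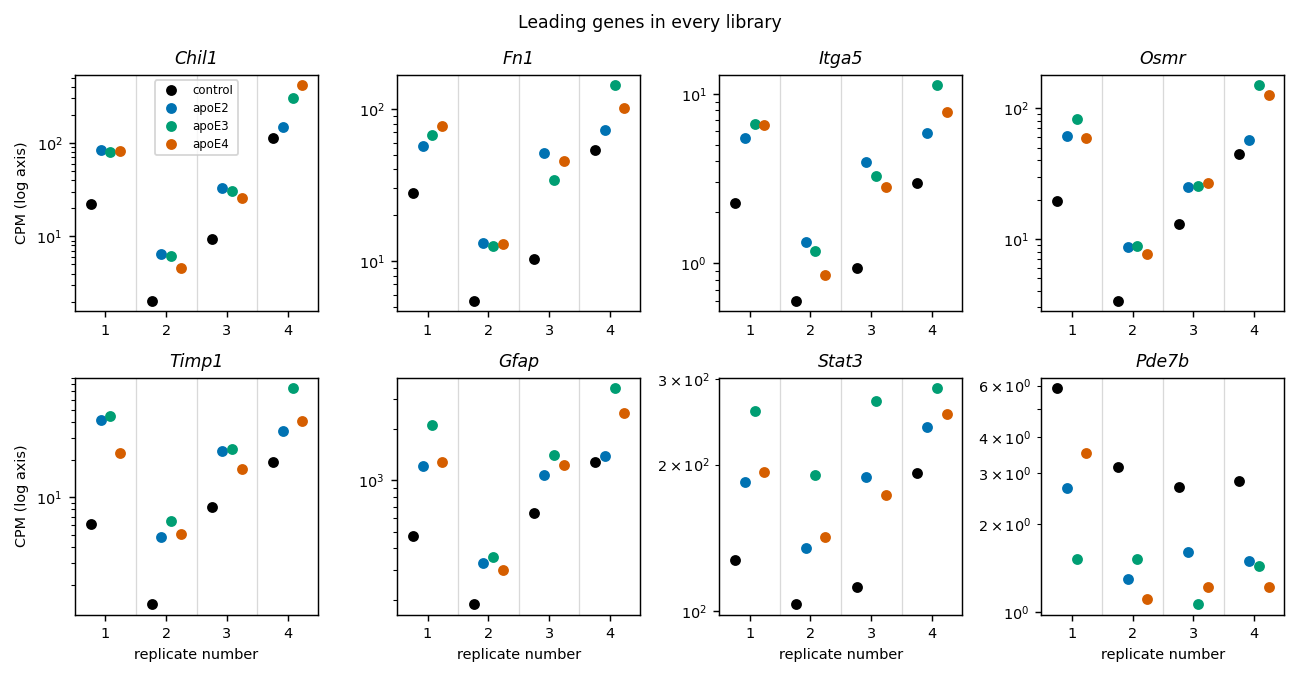
CPM on a log axis (y) by replicate number (x) for 8 genes, 1 point per library, with control in black, apoE2 in blue, apoE3 in green and apoE4 in orange. For Chil1, Fn1, Itga5, Osmr, Timp1, Gfap and Stat3 the 3 treated libraries of a number lie above its control and for Pde7b below it.

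The genes that fell with apoE were few and mostly of modest size. Pde7b (chr10:20398004-20725078), a phosphodiesterase that degrades cyclic AMP, was at 5.87, 3.14, 2.69 and 2.83 CPM in the controls and at 1.07 to 3.53 CPM (median 1.47) with apoE, lower in 12 of 12 libraries and 2.19-fold lower (log2 −1.13 ± 0.17, adjusted p = 0.0121). The groups overlapped through apoE4 replicate 1 alone, which had 3.53 CPM where the other treated libraries reached at most 2.68 CPM. Synpr, encoding synaptoporin, a synaptic vesicle protein of hippocampal neurons, was at 184, 122, 112 and 129 CPM in the controls and at 50.7 to 136 CPM (median 69.4) with apoE (log2 −0.82 ± 0.17, adjusted p = 0.0342). Myt1, a zinc finger transcription factor of neural and oligodendrocyte development, fell from 29.4, 30.8, 19.6 and 24.4 CPM to between 12.9 and 23.6 CPM (log2 −0.59 ± 0.13, adjusted p = 0.0366). Atp6v1c2, a subunit of the vacuolar proton pump, was at 0.733 to 2.00 CPM in the controls and at 0.0656 to 1.27 CPM with apoE (log2 −1.19 ± 0.27, adjusted p = 0.0495). The other genes called lower, named after their values were seen, were Inpp5k, a phosphoinositide phosphatase (−0.39 ± 0.07), Dpf1, a subunit of neuronal chromatin remodelling complexes (−0.33 ± 0.07), Lrrn3 (−0.35 ± 0.07), the microtubule-associated Map7 (−0.50 ± 0.11), Edrf1 (−0.39 ± 0.08), Zfp811 (−0.47 ± 0.10), Cadps2, which acts in dense-core vesicle release (−0.41 ± 0.09), and the transcribed pseudogene A930017M01Rik (−0.58 ± 0.13).

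Among gene lists, markers of reactive astrocytes stood at the top. Of 24 such genes tested 11 rose (45.8%, against 1.02% of all tested genes) and 0 fell. All 24 had a log2 fold change above 0, as had 9057 of all 17038 tested genes, and their median was 0.91 beside 0.01 over all tested genes. Those called were Timp1, Osmr, the sphingosine receptor S1pr3 (1.09 ± 0.18), the hyaluronan receptor Cd44 (1.19 ± 0.20), Tm4sf1 (1.21 ± 0.21), complement C3 (1.02 ± 0.18), the small heat shock protein gene Hspb1 (1.71 ± 0.31), Cd109 (0.87 ± 0.16), the iron-sequestering lipocalin Lcn2 (1.10 ± 0.20), ceruloplasmin Cp (0.89 ± 0.17) and the intermediate filament gene Nes (0.76 ± 0.17), with adjusted p between 0.0111 and 0.0463. Vim (0.91 ± 0.22, adjusted p = 0.0587) and Serpina3n (1.45 ± 0.37, adjusted p = 0.0686) did not pass. Median log2 differences of the list within replicate numbers 1 to 4 were 1.38, 0.70, 0.75 and 0.79. The summed level of the list was 467 to 3884 CPM in the control and 693 to 9829 CPM in the treated libraries, and it exceeded the control of the same number in 12 of 12.

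Markers of astrocytes in general had mostly positive fold changes, with fewer calls. Of 23 tested 2 rose (8.7%) and 0 fell, and the median log2 fold change was 0.49. Gfap (chr11:102887336-102900912), the astrocytic intermediate filament, was at 474, 189, 641 and 1288 CPM in the controls and at 300.2 to 3449 CPM (median 1255) with apoE, 2.10-fold higher (log2 1.07 ± 0.21, adjusted p = 0.0333) and above the control of its number in 12 of 12 libraries. Gja1, the gap junction protein connexin 43, was at 38.2, 10.1, 23.2 and 84.2 CPM in the controls and at 13.8 to 146 CPM with apoE, above its control in 11 of 12 libraries (log2 0.62 ± 0.14, adjusted p = 0.0481). Summed astrocyte markers reached 2390 to 7289 CPM in the control and 2530 to 13170 CPM in the treated libraries and exceeded the control of the same number in 11 of 12. The glial potassium channel Kcnj10, counted in the potassium channel list, had a log2 fold change of 0.65 ± 0.13 (adjusted p = 0.0354), the single call among 79 channel subunits, a share of 1.3% beside the 1.02% of all tested genes. In these bulk libraries fewer or more cells of a type cannot be told apart from less or more RNA per cell, and the study's own counts of GFAP-labelled cells in its cultures were not analysed here.

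Markers of other non-neuronal cells had medians between 0.08 and 0.73 and 0 to 2 calls a list, against 1.02% of all tested genes called higher. The oligodendrocyte list had 0 of 21 called and a median log2 fold change of 0.48, and its summed level (136 to 601 CPM in the control, 140 to 1076 CPM in the treated libraries) exceeded the control of the same number in 11 of 12. Neural progenitor genes had 2 of 19 called (10.5%), Nes and Tnc, a median of 0.48 and a sum above the control in 12 of 12 libraries. Microglial genes had 1 of 23 called, Cd14 (0.98 ± 0.21), with a median of 0.29, fibroblast and meningeal genes had 1 of 21, Fn1, with a median of 0.46, and mural genes had 1 of 12, Notch3 (1.03 ± 0.21), with a median of 0.73. Endothelial genes had the lowest median, with 0 of 11 called, a log2 fold change above 0 in 6 and below 0 in 5 and a sum above the control in 5 of 12 libraries. Ependymal and choroid plexus genes had 0 of 13 called, a median of 0.17 and a sum above the control in 11 of 12. The sums of microglial and of fibroblast and meningeal genes each exceeded the control in 10 of 12 libraries and that of mural genes in 8 of 12. The part of these cell types in the gene groups described here was not tested.

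**Figure D3:**
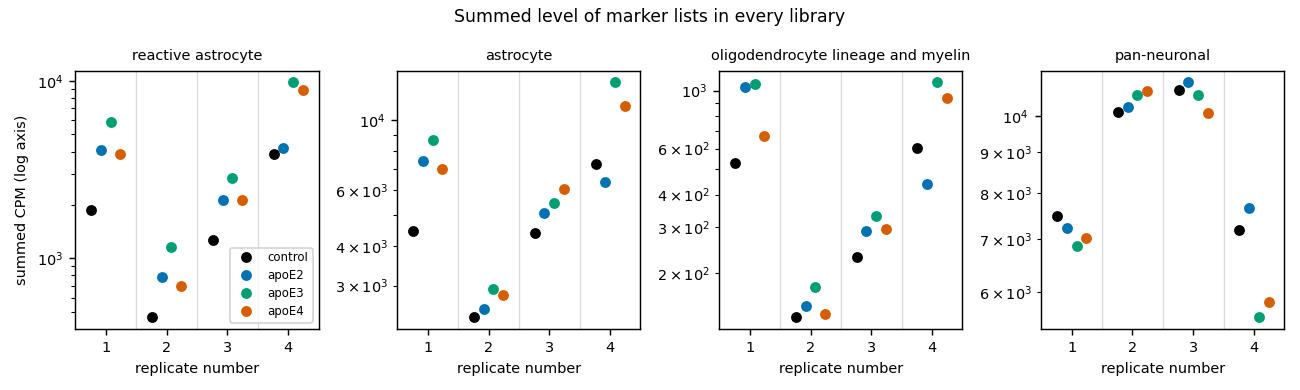
Summed CPM on a log axis (y) of 4 marker lists by replicate number (x), 1 point per library, coloured by treatment. Reactive astrocyte markers exceed the control of the same number in all 12 treated libraries and pan-neuronal markers in 5 of 12, and glial sums are lowest in replicate number 2.

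Lists of neuronal markers, of transmitter receptors and of synaptic and immediate early genes had no calls in the pooled fit and medians at or below 0.002. At the share of all tested genes called lower (0.0704%), lists of this size would hold no call. Among 20 pan-neuronal genes 0 were called and the median log2 fold change was −0.09, with summed levels of 7183 to 10780 CPM in the control and 5587 to 11030 CPM in the treated libraries. The medians were −0.12 for hippocampal excitatory genes (0 of 18 called), −0.19 for GABAergic interneuron genes (0 of 20), −0.22 for GABA-A receptor subunits (0 of 13), −0.11 for NMDA and kainate receptors (0 of 14), 0.00 for AMPA receptors (0 of 16), −0.09 for synaptic vesicle genes (0 of 25) and −0.11 for postsynaptic scaffolds (0 of 25). The postsynaptic scaffold Dlg4 was at 253 to 401 CPM in the controls and 181 to 435 CPM with apoE (log2 −0.15 ± 0.09, adjusted p = 0.428). Values for the NMDA receptor subunit Grin1 were −0.16 ± 0.14 (adjusted p = 0.614) and for the vesicle protein Syp −0.09 ± 0.10 (adjusted p = 0.688). Activity-regulated immediate early genes had 0 of 22 called and a median of −0.10. Of the 13 GABA-A receptor genes 10 had a treated mean below the control in all 4 replicate numbers, against 13.9% of all tested genes. With a coefficient per isoform, a fit described last, 3 of 13 GABA-A receptor genes, 3 of 20 GABAergic interneuron genes and 2 of 14 NMDA and kainate receptor genes were called lower and none higher, against 1.33% of all tested genes called lower. In that fit each of these lists had 0 lower calls without the block, without control replicate 1 and without control replicate 4.

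Calls were also made among matrix proteins and their receptors. Of 39 collagens and laminins 6 rose (15.4%, against 1.02% of all tested genes) and 0 fell, with a median log2 fold change of 0.46, and they were the fibrillar collagen Col5a2 (1.00 ± 0.17), the basement membrane chains Col4a6 (1.21 ± 0.22) and Col4a5 (0.88 ± 0.18), Col8a1 (1.07 ± 0.22), and the laminins Lama4 (1.07 ± 0.20) and Lamb2 (0.78 ± 0.17). The main basement membrane chains did not pass, with Col4a1 at 0.17 ± 0.14 and Col4a2 at 0.02 ± 0.10 (adjusted p = 0.550 and 0.938), and neither did the fibroblast collagen Col1a1 (0.38 ± 0.37, adjusted p = 0.643). Col4a5 and Col4a6 are neighbours on chromosome X. Of 25 integrins and other matrix receptors 6 rose (24%) and 0 fell, with a median of 0.46: Itga5, Itgav (0.79 ± 0.13), Itga1 (1.07 ± 0.22), Itga9 (0.71 ± 0.16), Cd44 and the syndecan Sdc4 (0.97 ± 0.21). Itga5 and Itgav encode subunits that bind fibronectin, and Itga1 a subunit that binds collagen. Their common partner Itgb1 had 0.48 ± 0.14 and did not pass (adjusted p = 0.103). Itgav was at 98.0, 35.3, 77.6 and 98.9 CPM in the controls and at 48.5 to 257 CPM (median 136) with apoE, above its control in 12 of 12 libraries.

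Targets and partners of TEAD and YAP and members of the gp130 pathway had medians of 0.68 and 0.69. Of 30 TEAD and YAP genes 5 rose (16.7%, against 1.02% of all tested genes) and 0 fell: Ctgf (1.47 ± 0.29), a secreted matricellular protein, the receptor tyrosine kinase Axl (1.06 ± 0.21), Wwtr1, which encodes the coactivator TAZ itself (1.13 ± 0.20), Myof (0.87 ± 0.18) and Ccdc80 (1.18 ± 0.20). Wwtr1 was at 29.3, 12.8, 31.5 and 57.0 CPM in the controls and at 17.8 to 181 CPM (median 78.6) with apoE. Of 19 gp130 and STAT3 genes 3 rose (15.8%) and 0 fell, the receptor Osmr, the transcription factor Cebpd (1.09 ± 0.19) and Stat3 (0.66 ± 0.13). Stat3 was at 127, 103, 112 and 192 CPM in the controls and at 135 to 287 CPM (median 192) with apoE, above its control in 12 of 12 libraries (adjusted p = 0.0333). The feedback inhibitor Socs3 had 1.40 ± 0.35 and the shared receptor Il6st, which encodes gp130, 0.37 ± 0.12, and neither passed (adjusted p = 0.0629 and 0.142).

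Single genes of lipid metabolism passed the test. Of 15 targets of the sterol-sensing receptor LXR 2 rose (13.3%, against 1.02% of all tested genes) and 0 fell. Abca1, the transporter that loads cholesterol onto apoE, was at 148, 65.9, 122 and 234 CPM in the controls and at 90.5 to 439 CPM (median 235) with apoE, above its control in 11 of 12 libraries (log2 0.78 ± 0.15, adjusted p = 0.0309). Srebf1, the regulator of fatty acid synthesis, was at 76.2, 31.1, 57.8 and 140 CPM in the controls and at 36.8 to 229 CPM with apoE (0.68 ± 0.14, adjusted p = 0.0333). Other LXR targets did not pass, among them Abcg1 at −0.12 ± 0.11 and mouse Apoe itself, which was at 907, 339, 834 and 1730 CPM in the controls and at 408 to 2293 CPM with apoE (0.33 ± 0.15, adjusted p = 0.270, above its control in 10 of 12 libraries). Among 17 fatty acid synthesis genes Gpam, the first enzyme of triglyceride synthesis, rose besides Srebf1 (0.56 ± 0.11, adjusted p = 0.0338), while Fasn was at −0.11 ± 0.08. None of 24 cholesterol synthesis genes was called, and the median was −0.09. Of 15 apoE receptors and their partners only Lrp5 rose (0.54 ± 0.12, adjusted p = 0.0463), while Lrp1 (0.22 ± 0.14) and Vldlr (−0.02 ± 0.08) did not pass.

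Single genes rose in several other lists, where the share of all tested genes called higher (1.02%) gives less than 1 call in a list of this size. Vdr, the vitamin D receptor, was the single call among 20 vitamin D and retinoid genes. Its level was low in all libraries, at 0.182, 0.0403, 0.175 and 0.367 CPM in the controls and at 0.382 to 2.30 CPM (median 0.725) with apoE (log2 2.20 ± 0.40, 4.60-fold, adjusted p = 0.0254). The groups did not overlap, but only narrowly. The nearest values, in control replicate 4 and apoE2 replicate 2, came from 7 and 10 counts. Slc7a11, the cystine transporter, was the single call among 25 NRF2 targets, all of which had a log2 fold change above 0 (1.03 ± 0.24, adjusted p = 0.0499, list median 0.32). Hspb1 and Bag3 were called among 16 heat shock genes, whose median was −0.01. Hspb1 was at 2.77, 0.362, 2.48 and 7.49 CPM in the controls and at 1.17 to 33.2 CPM with apoE (log2 1.71 ± 0.31, adjusted p = 0.0243). Smad6 (1.56 ± 0.30) and Ldlrad4 (0.76 ± 0.17) rose among 29 TGF-beta genes, Fzd6 (0.80 ± 0.16) and Tcf7 (0.99 ± 0.22) among 36 Wnt genes, Plxnb1 (0.96 ± 0.20) and Efna5 (0.64 ± 0.14) among 39 axon guidance genes, Litaf (1.17 ± 0.22) among 32 lysosomal genes and Lingo4 (1.5 ± 0.34) among 12 genes of the LINGO and Nogo receptor family. Of the Ldlrad4 locus 52.1% is overlapped by Fam210a on the other strand, and since it is not stated whether the counting used strand, its reads are uncertain.

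**Figure D4:**
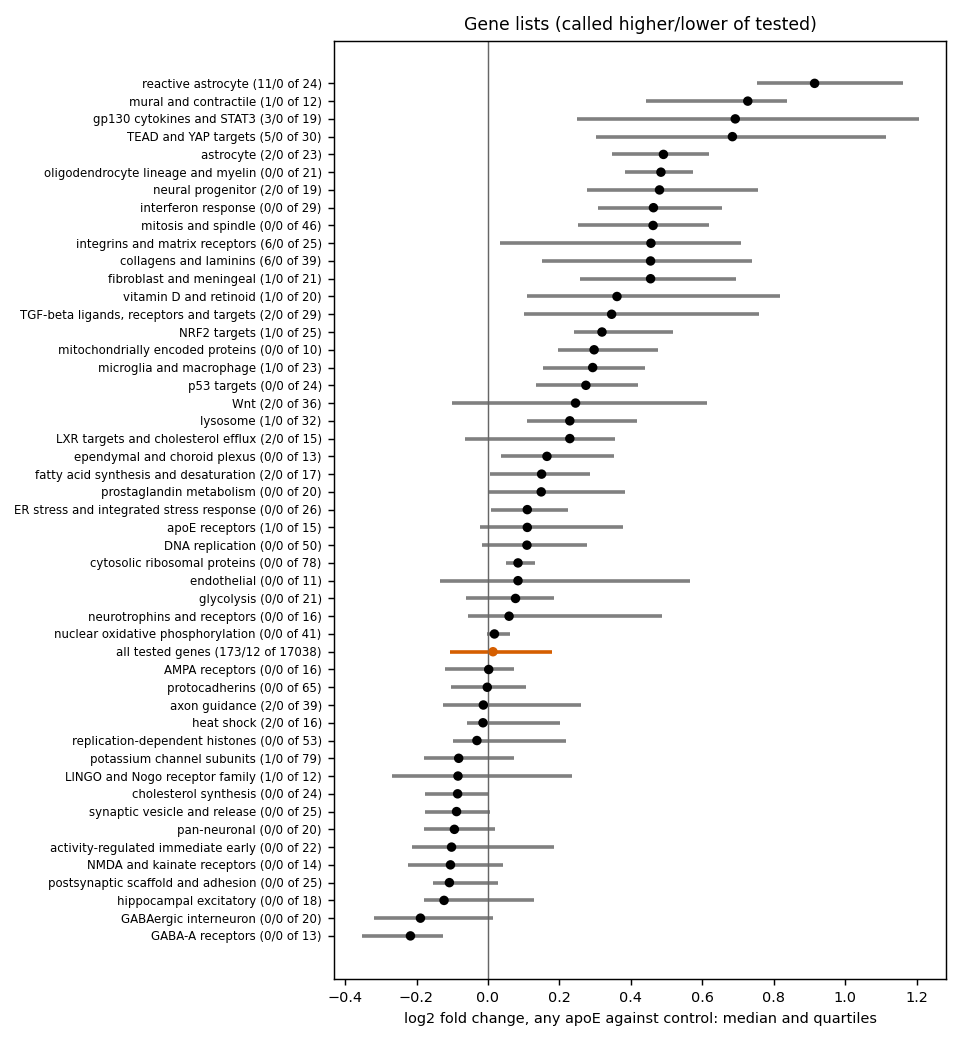
Median (point) and quartiles (line) of the log2 fold change of any apoE against control for 48 gene lists and, in orange, for all 17038 tested genes; the numbers after each name are the genes called higher and lower of those tested. Reactive astrocyte genes lie highest (median 0.91) and GABA-A receptors lowest (−0.22).

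The response was also measured for each isoform. Each isoform was set against the same 4 control libraries, so these values are not independent of each other. Over the genes called higher, apoE2 gave a median log2 fold change of 0.78, apoE3 of 1.11 and apoE4 of 0.88, and over those called lower −0.48, −0.58 and −0.37. The 3 values lay within 0.5 of each other on the log2 scale for 123 of the 185 genes. The same share over all tested genes was not computed. The pooled fit, with its single treated coefficient, also favours genes on which the isoforms agree, so this count does not measure how far they share a response. For Chil1 the log2 fold changes were 1.47 ± 0.24, 1.64 ± 0.24 and 1.66 ± 0.24 with apoE2, apoE3 and apoE4, and for Fn1 1.26 ± 0.22, 1.38 ± 0.22 and 1.42 ± 0.22. Pde7b had −1.01 ± 0.22, −1.30 ± 0.23 and −1.12 ± 0.23. For reactive astrocyte genes the list medians were 0.72, 1.12 and 0.89.

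The dependence on single isoforms was uneven. With all apoE2 libraries left out 1123 genes were called (182 of the 185 among them), with apoE4 left out 335 (108 of the 185), and with apoE3 left out 17, all of them among the 185. These 17 genes were called whichever isoform was left out. Higher with apoE were Chil1, Fn1, Itga5, Cnn2, Tgm1, Adamtsl3, Timp1, Osmr, Bag3, Itgav, Ccdc80, Wwtr1, Stat3, Spp1, Msn and P2ry2, and Pde7b was lower. Msn, which encodes the membrane-cytoskeleton linker moesin, had a log2 fold change of 1.07 ± 0.18 and the nucleotide receptor P2ry2 one of 1.85 ± 0.33, and both were named after their values were seen. Leaving out an isoform also removes 4 libraries, so a lost call does not show that the gene responded to that isoform alone. Without apoE2 replicate 4 alone 1309 genes were called, against 75, 69 and 84 without apoE2 replicates 1 to 3. In that library 38.4% of reads were on no gene, against 64.7, 67.05 and 63.5% in control, apoE3 and apoE4 replicate 4. The gain in calls without apoE2 cannot be told apart from the effect of this single library.

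**Figure D5:**
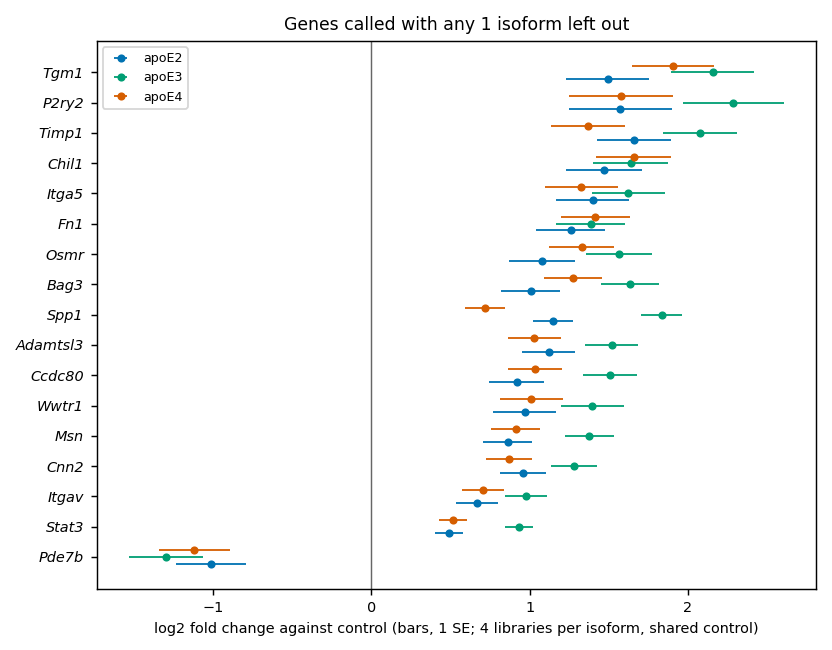
Log2 fold change against control (x) with apoE2 (blue), apoE3 (green) and apoE4 (orange) for the 17 genes (y) called whichever isoform was left out; bars are 1 SE, n = 4 libraries per isoform and 4 shared controls. All values for Pde7b are below 0 and those of the other 16 genes above 0.

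Differences among the isoforms were tested separately, in a contrast between the treated groups, with the controls entering only the estimates of the block and the dispersion. They were found for 841 genes (4.94% of those tested, adjusted p under 0.05) and for 12 of the 185 genes called in the pooled comparison. At an unadjusted p under 0.05 the numbers were 3631 and 76. The 841 became 480 without apoE2 replicate 2, 545 without apoE3 replicate 1, 498 without apoE4 replicate 1 and 416 without apoE4 replicate 3, and 739 to 820 with a control library left out. In a fit of the 12 treated libraries alone they were 567. The pooled model holds 1 treated coefficient, so that a difference between isoforms enters its residual. With a coefficient per isoform and the average of the 3 set against the control, 1010 genes were called (784 higher, 4.6% of those tested, and 226 lower, 1.33%), and all 185 were among them. The reactive astrocyte list then had 19 of 24 genes higher, the astrocyte list 11 of 23 and the TEAD and YAP list 16 of 30 with 1 lower. Besides the lower GABA-A, GABAergic and NMDA and kainate receptor genes given above, this fit called 1 lower gene of 25 in the synaptic vesicle list, 1 higher and 1 lower of 16 AMPA receptor genes, 2 higher and 1 lower of 22 immediate early genes, 2 higher and 4 lower of 79 potassium channel subunits and 1 higher and 2 lower of 65 protocadherins, and it called none of the pan-neuronal, hippocampal excitatory and postsynaptic scaffold genes. Leaving out a control replicate, chosen as an alternative after seeing the data, moved the higher and lower calls to 161 and 26 without control replicate 1, 739 and 177 without control replicate 2, 343 and 82 without control replicate 3 and 363 and 72 without control replicate 4. Among treated libraries, without apoE2 replicate 4 they were 1460 and 702. Reactive astrocyte genes called higher then numbered 13, 15, 15 and 15 without control replicates 1 to 4, astrocyte genes 1, 9, 3 and 5, TEAD and YAP genes 9, 15, 11 and 10, and GABA-A receptor genes called lower 0, 2, 1 and 0. GABAergic interneuron genes called lower numbered 0, 4, 0 and 0, and NMDA and kainate receptor genes 0, 0, 1 and 0. Without the block this fit called 0 genes (666 at an unadjusted p under 0.05).

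The 12 genes called both in the pooled comparison and for a difference among isoforms were Spp1, Tnc, Stat3, Serpina3h, Sulf1, Sulf2, Hspb1, Rgs9, Flnc, Shroom3, Ldlrad4 and Synpr. Spp1, the secreted phosphoprotein osteopontin, was at 88.3, 21.7, 15.99 and 177 CPM in the controls and at 25.3 to 611 CPM (median 119) with apoE, above its control in 12 of 12 libraries (log2 1.30 ± 0.28, adjusted p = 0.0380). For apoE2, apoE3 and apoE4 in turn its log2 fold changes were 1.15 ± 0.13, 1.83 ± 0.13 and 0.72 ± 0.13 (adjusted p of the difference among isoforms 3.06e-04), and 18.8% of its exon length overlaps another gene on the same strand. Tnc, the matrix glycoprotein tenascin C, had 1.17 ± 0.16, 1.72 ± 0.16 and 0.73 ± 0.16 (adjusted p of the difference 0.00427). Stat3 had 0.49 ± 0.09, 0.94 ± 0.09 and 0.52 ± 0.09 (0.00987), and Serpina3h, annotated as a transcribed pseudogene of a serine protease inhibitor family with close paralogs, so that its reads are uncertain, 1.25 ± 0.21, 2.21 ± 0.21 and 0.97 ± 0.21 (0.00299). In these 4 genes apoE3 had the highest value, as it had in Sulf1, Sulf2 and Hspb1 below, and in Spp1, Tnc and Serpina3h apoE4 had the lowest. The heparan sulfatases Sulf1 (1.03 ± 0.12, 1.15 ± 0.12 and 0.46 ± 0.12) and Sulf2 (0.65 ± 0.12, 0.96 ± 0.12 and 0.40 ± 0.12), Hspb1 (1.77 ± 0.24, 2.08 ± 0.23 and 1.06 ± 0.24) and Rgs9 (1.23 ± 0.13, 1.00 ± 0.14 and 0.47 ± 0.14) had their lowest value with apoE4. Flnc, the actin crosslinker filamin C, and Shroom3 had their lowest value with apoE2 (0.46 ± 0.17 and 0.51 ± 0.15). Ldlrad4 had its highest value with apoE2 (1.05 ± 0.13, against 0.68 ± 0.13 with apoE3 and 0.48 ± 0.13 with apoE4). Synpr fell in all, by 0.86, 1.19 and 0.49 on the log2 scale. Against the control, 5 of the 12 did not pass with 1 of the isoforms: Flnc and Shroom3 with apoE2 (adjusted p = 0.244 and 0.101) and Sulf2, Rgs9 and Ldlrad4 with apoE4 (adjusted p = 0.0760, 0.0763 and 0.0696).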

How the data were processed

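RNA was measured by Illumina TruSeq sequencing in 16 libraries. STAR alignment to mm10 and HTSeq counting were done by the authors, who deposited raw, unnormalized counts for 48397 gene symbols. The annotation counted and the use of strand are not given in the sources used here. HTSeq's rows for reads on no gene (38.4 to 73.8% of a library) entered neither library sizes nor tests.

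Groups and replicate numbers came from the sample titles. Counts were fitted with edgeR 4.0.16 in R 4.3.3 (TMM scaling, default low-count filter, quasi-likelihood test, Benjamini-Hochberg adjustment) with 1 treated coefficient and the replicate number as a block. SE is the absolute log2 fold change divided by the square root of F. The difference among isoforms was an F-test in a model with 1 coefficient per group and the block. CPM are relative to TMM-scaled library sizes. Library totals were compared by exact permutation of the control label within each number (256 arrangements). The fits were tested on simulated data.

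The labels do not say what a replicate number marks. Libraries of the same number deviated together from their group means (every correlation was between 0.362 and 0.831, with 0.362 to 0.552 in number 1, and between −0.736 and 0.569 for libraries of different numbers and groups), and the numbers were taken to pair the samples. No 2 libraries were duplicates. The study's text states that each library came from an independent culture.

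The comparison, gene lists and alternatives were chosen with earlier results of these data known. The text names the 14 genes called higher and up to 10 called lower with the smallest p among protein-coding genes with an absolute log2 fold change of at least 0.58, up to 4 called members of each list, Apoe, Gfap, Dlg4, Grin1, Syp and Vdr, and the called gene with the smallest p among isoforms. Other named list members, the other genes called lower and the other genes with an isoform difference were chosen after their values were seen. Positions are from GENCODE M21, to which 95.9% of symbols matched, and promoters from RefSeq (GRCm38.p6). The features over 1% of a library, Lars2, Rn18s-rs5, Rn7sk and mt-Rnr2, took 4.82 to 24.9% of gene counts. Alternatives were DESeq2 1.42.0, other scaling and filters, no block, 1 coefficient per isoform, length and GC offsets, and leaving out each library, replicate number or isoform. Leaving out each library, or the block, in the fit with 1 coefficient per isoform was added after seeing the data. Not every listed gene is reported here.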

Additional observations from a re-analysis of the deposited data

Results flagged for a closer look

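In 6 of the 300 groups of 4 libraries examined (75 named genes in 4 groups), 1 library lay apart from the other 3, where chance alone would flag about 15. Pde7b was at 5.87 CPM in control replicate 1 (nearest other control 3.14 CPM) and at 3.53 CPM in apoE4 replicate 1 (nearest 1.22 CPM). Ldlrad4 was at 14.3 CPM in control replicate 2 (nearest 9.39 CPM). Inpp5k was at 42.7 CPM in apoE3 replicate 2 (nearest 30.1 CPM). Lrrn3 was at 141 CPM in apoE3 replicate 2 (nearest 82.1 CPM) and at 140.9 CPM in apoE4 replicate 2 (nearest 91.3 CPM).

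Among the genes called in the pooled comparison, 12 differed among the isoforms by edgeR's F-test. The adjusted p was 3.06e-04 for Spp1, 0.00299 for Serpina3h, 0.00427 for Tnc, 0.00605 for Sulf1, 0.00951 for Rgs9, 0.00987 for Stat3, 0.0125 for Synpr, 0.017 for Flnc, 0.0274 for Sulf2, 0.0355 for Hspb1, 0.0395 for Ldlrad4 and 0.0449 for Shroom3.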

How the results depend on the processing

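Significance depended on the processing. No gene of the 185 changed sign in an alternative in which it was tested, which the blocked test favours by calling genes that differ one way in every number. Among the 75 named genes, 3 of which were not tested at 1 CPM in 8 libraries, 1412 values kept direction and side of the threshold, 908 lost the call and 2 gained it. The calls (higher, lower, at least 2-fold) numbered 185 (173, 12, 80) as reported. Without the replicate block they were 0 (0, 0, 0), and the pairing by number therefore decides them. They were 775 (675, 100, 180) with no low-count filter, 897 (697, 200, 165) with DESeq2 and the block and 1010 (784, 226, 192) with 1 coefficient per isoform and the block. Length and GC offsets with the block gave 42 genes called lower. They were 1123 (927, 196, 252) without apoE2, 17 (16, 1, 10) without apoE3 and 335 (115 lower, 137 at least 2-fold) without apoE4. Leaving out 1 library or 1 replicate number gave 0 to 1309 calls (0 to 999 higher, 0 to 310 lower, 0 to 233 at least 2-fold), with 0 also without replicate number 1, 2 or 3 and 413 without number 4. Genes that differed among isoforms (841) numbered 2395 with no filter, 39 with no block, 1706 with DESeq2 and 202 to 999 with a library or number left out. The 1010 calls of the fit with 1 coefficient per isoform became 0 without the block and 187 to 2162 with a library left out. The 17 calls that needed no single isoform became 7 at 1 CPM in 8 libraries, 0 without the block and 202 with 1 coefficient per isoform. Fewer libraries also mean fewer residual degrees of freedom. The difference in total counts ranged from −1828000 to 1476000 and that in reads on no gene from −0.642 to 3.79 percentage points as single libraries were left out, changing sign. Apart from these fits, the cause was not tested.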

Other observations

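Several gene lists without a call in the pooled fit had mostly positive fold changes, where 9057 of all 17038 tested genes were above 0. With a coefficient per isoform, 3 of 46 mitosis and spindle genes, 2 of 29 interferon response genes, 3 of 24 p53 targets and 2 of 16 neurotrophin genes were called higher and 1 of the last lower, against 4.6% of all tested genes called higher. Genes of mitosis and the spindle had a log2 fold change above 0 in 44 of 46, with a median of 0.46 and isoform medians of 0.26, 0.50 and 0.49 for apoE2, apoE3 and apoE4. Interferon response genes were above 0 in 28 of 29, with a median of 0.46. Their treated minus control difference had a median of 1.24 in replicate number 1 and of 0.12, 0.30 and 0.17 in numbers 2 to 4, and the isoform medians were 0.19, 0.32 and 0.81. Genes of DNA replication had a median of 0.11 with 0 of 50 called.

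Cholesterol synthesis genes had medians of opposite sign between replicate numbers. The list median of treated minus control was −0.33 in number 1, −0.04 in number 2, −0.40 in number 3 and 0.49 in number 4, and the treated mean lay above the control in every number for 0 of 24 genes. Genes of oxidative phosphorylation (median 0.02, 0 of 41 called), glycolysis (0.08, 0 of 21), cytosolic ribosomal proteins (0.08, 0 of 78), replication-dependent histones (−0.03, 0 of 53) and protocadherins (0.00, 0 of 65) were near the median of all tested genes (0.01). Genes of mitochondrially encoded proteins had a median of 0.30 with 0 of 10 called. The p53 targets (0.27, 0 of 24), genes of ER stress (0.11, 0 of 26), of prostaglandin metabolism (0.15, 0 of 20) and neurotrophins with their receptors (0.06, 0 of 16) had no call in the pooled fit.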
